A study of Homo sapiens with 6 samples.

Results

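A set of 40 genes of the hypoxia response and of glycolysis was examined in Ker-CT, a line of human keratinocytes whose life span was extended with CDK4 and telomerase. Members were looked up by symbol through the human Ensembl identifiers of the deposited table, and all 40 were found among its 58302 gene entries. They fall into 6 roles: 7 subunits and oxygen sensors of the hypoxia-inducible factor (HIF), 2 glucose transporters, 15 glycolytic enzymes, 2 PFKFB regulators of phosphofructokinase, 5 genes of pyruvate and lactate handling, and 9 other hypoxia targets. RNA was sequenced from 3 siKMT2C libraries (cells given siRNA against KMT2C, a histone methyltransferase of the COMPASS-like complexes) and 3 siNC libraries (cells given negative-control siRNA). Both groups were held for 24 h in M5, a mixture, with 10 ng/ml of each cytokine, of oncostatin M, TNF-α, IL-22, IL-1α and IL-17A that is used as a psoriasis model. Oxygen was not a variable of the study, and hypoxic or unstimulated cells were not analysed here. All libraries come from a single immortalised line, and the labels do not say whether replicates were separate cultures, so p-values measure only the spread between these libraries.

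HIF is a transcription factor made of an oxygen-regulated alpha subunit, encoded by HIF1A or EPAS1, and the stable beta subunit encoded by ARNT. In the presence of oxygen, the prolyl hydroxylases EGLN1, EGLN2 and EGLN3 mark the alpha subunit for the ubiquitin ligase that contains VHL, so much of its control is on the protein and is not visible in RNA. HIF binds the core motif ACGTG or GCGTG and induces glucose transport, glycolytic enzymes, lactate production and pH control. In psoriatic epidermis, keratinocyte growth under inflammatory cytokines is known to go with raised HIF activity and raised glucose uptake through SLC2A1.

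KMT2C itself fell in all siKMT2C libraries: 32.0, 30.8 and 27.3 CPM (the usual count unit relative to sequencing depth, after TMM scaling of the library sizes), against 87.9, 82.0 and 72.6 CPM in siNC (log2 fold change -1.43, SE 0.14, edgeR adjusted p = 0.00786). The call was lost without siKMT2C replicate 1 (edgeR adjusted p = 0.0634), siKMT2C replicate 2 (0.0507) or siNC replicate 2 (0.0593), with log2 fold changes of -1.48, -1.45 and -1.42. The siKMT2C libraries held 15921870 to 16414777 counts and the siNC libraries 14409277 to 17539519. Mean GC content of the counted transcripts was 48.36%, 47.89% and 49.03% in siKMT2C replicates 1 to 3, against 47.75%, 48.21% and 49.79% in siNC, so the third replicate was the most GC-rich library of each group. Keratinocyte markers (KRT5, KRT14, TP63 and 7 others) summed to 13754 to 19386 CPM in siKMT2C and 14129 to 21163 CPM in siNC. None of them was called by edgeR, whereas DESeq2 called TP63 lower (log2 fold change -0.68, adjusted p = 0.048) and COL17A1 higher (0.73, adjusted p = 0.00458). Of 5 melanocyte markers, 2 were at 0 in every library (TYR and DCT), and of 4 endothelial markers, 3 were (PECAM1, CDH5 and TIE1). Melanocyte markers summed to 2.03 to 3.06 CPM in siKMT2C and 2.31 to 3.38 CPM in siNC. The immune markers PTPRC and CD3E were at 0 in every library, while CD68 and CD14 together summed to 13.0 to 14.5 CPM in siKMT2C and 9.61 to 14.5 CPM in siNC. The 7 fibroblast markers, none of them at 0 throughout, summed to 13.5 to 17.5 CPM in siKMT2C and 20.7 to 31.1 CPM in siNC. DESeq2, though not edgeR, called COL1A1 (-0.77, adjusted p = 0.0191) and DCN (-1.57, adjusted p = 0.00577) lower. The part of these markers in the values below was not tested. In bulk RNA, fewer cells of a kind and less RNA per cell cannot be told apart.

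Most enzymes of core glycolysis differed little between siKMT2C and siNC. HIF1A, the glucose importer SLC2A1, the lactate dehydrogenase LDHA and the hypoxia targets CA12, BNIP3L and ADM had log2 fold changes from -0.89 to -0.56, and the phosphofructokinase PFKL had the highest of all members, 0.86. None of the 39 members that passed the expression filter was called (quasi-likelihood test of edgeR, with p adjusted by Benjamini-Hochberg over all genes and a threshold of 0.05), where 1.5% of all 15063 genes tested were called. At an unadjusted p under 0.05 there were 11 of 39 (28.2%), against 16.9% of all genes. The groups did not overlap in 9 members with siKMT2C lower (23.1%, against 12.3% of all genes tested) and in 4 with siKMT2C higher (10.3%, against 11.8%). By role the median log2 fold change was -0.02 for the 15 glycolytic enzymes (8 negative), -0.23 for the 8 tested other hypoxia targets (5 negative) and -0.17 for the 7 HIF subunits and sensors (4 negative). Over all genes tested the median was -0.00, with quartiles of -0.24 and 0.22 for single genes. These counts and medians describe the members and were not tested against other genes. The members and the further lists below were chosen with earlier results of these data known.

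**Figure D1:**
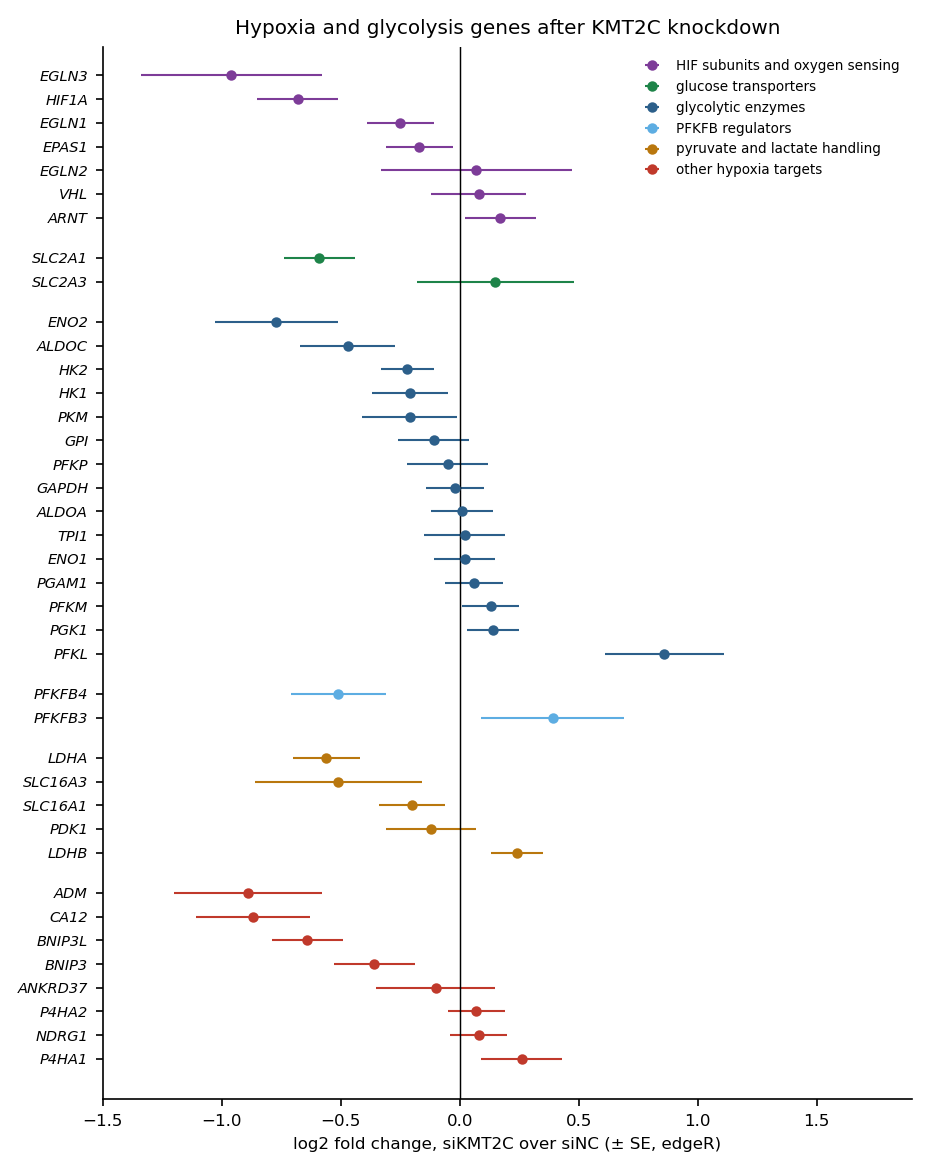
Log2 fold change of siKMT2C over siNC (horizontal axis) for the 39 tested members, coloured by role and sorted within it; bars are ± 1 SE from edgeR, n = 3 libraries per group. Most glycolytic enzymes sit close to 0, with ENO2 at -0.77 and PFKL at 0.86 as the ends of that class, and the other hypoxia targets run from -0.89 for ADM to 0.26 for P4HA1.

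In some other fits a few members crossed the threshold. With a block for replicate number, edgeR called 7 members (17.9%), against 6.43% of all genes. Whether replicate numbers pair the libraries is not settled. DESeq2 called 6 of the 38 members to which it gave an adjusted p, 15.8% (HIF1A, SLC2A1, LDHA, CA12 and BNIP3L lower, PFKL higher), with adjusted p from 0.0145 for BNIP3L to 0.038 for LDHA, where it called 5.74% of all genes. After a correction for transcript GC content and length, edgeR called 4, 10.3% (HIF1A, LDHA and BNIP3L lower, PFKL higher), against 9.02% of all genes. Without siNC replicate 3 it called HIF1A, BNIP3L and ADM lower and PFKL higher, against 4.04% of all genes, and those 4 were called again without the third replicate of both groups (4.29% of all genes). The adjustment in each edgeR and limma-voom fit ran over all genes it tested. DESeq2 by default adjusts only over genes that pass its own filter, and it gave EGLN3 no adjusted p. Its 5.74% is a share of all 15063 genes, those without an adjusted p among them. The DESeq2 shares of members and of all genes therefore have unlike bases. The fit without replicate 3 of both groups was added after the data had been seen.

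To show what the loci look like, the RefSeq promoter windows (GRCh38.p14, from 250 bases before to 50 bases after a start site) of 5 members are printed: LDHA, SLC2A1 and CA12 from the members with lower values, PFKL as the member with the highest, and ENO1 as an abundant enzyme with a fold change near 0. Capitals mark the HIF core motif, ACGTG or GCGTG on either strand (CACGT or CACGC when read on the other).
LDHA, chr11:18394313-18394612, plus strand: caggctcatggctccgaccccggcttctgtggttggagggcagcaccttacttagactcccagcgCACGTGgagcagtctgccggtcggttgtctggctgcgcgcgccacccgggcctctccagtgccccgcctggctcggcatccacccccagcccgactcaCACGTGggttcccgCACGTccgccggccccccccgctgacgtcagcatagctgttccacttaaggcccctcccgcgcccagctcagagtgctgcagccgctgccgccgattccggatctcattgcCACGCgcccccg
SLC2A1, chr1:42958819-42959118, minus strand: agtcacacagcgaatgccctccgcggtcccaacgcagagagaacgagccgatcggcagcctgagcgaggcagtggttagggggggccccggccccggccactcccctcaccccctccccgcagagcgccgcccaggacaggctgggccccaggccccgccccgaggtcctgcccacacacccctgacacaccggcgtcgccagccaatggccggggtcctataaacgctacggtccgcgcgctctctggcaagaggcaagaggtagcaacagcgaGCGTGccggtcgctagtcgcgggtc
CA12, chr15:63381797-63382096, minus strand: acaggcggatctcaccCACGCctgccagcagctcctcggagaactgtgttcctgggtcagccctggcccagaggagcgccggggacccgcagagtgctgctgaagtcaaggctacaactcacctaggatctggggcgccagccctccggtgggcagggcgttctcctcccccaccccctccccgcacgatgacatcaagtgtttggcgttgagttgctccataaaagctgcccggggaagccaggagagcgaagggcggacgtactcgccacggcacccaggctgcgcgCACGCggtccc
PFKL, chr21:44299803-44300102, plus strand: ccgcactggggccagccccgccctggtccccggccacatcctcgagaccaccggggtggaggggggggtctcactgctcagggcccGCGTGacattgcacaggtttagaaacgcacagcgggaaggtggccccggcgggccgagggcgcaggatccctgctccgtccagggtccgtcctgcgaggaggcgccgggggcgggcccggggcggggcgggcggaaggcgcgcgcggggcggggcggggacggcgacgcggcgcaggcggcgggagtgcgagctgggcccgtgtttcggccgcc
ENO1, chr1:8878637-8878936, minus strand: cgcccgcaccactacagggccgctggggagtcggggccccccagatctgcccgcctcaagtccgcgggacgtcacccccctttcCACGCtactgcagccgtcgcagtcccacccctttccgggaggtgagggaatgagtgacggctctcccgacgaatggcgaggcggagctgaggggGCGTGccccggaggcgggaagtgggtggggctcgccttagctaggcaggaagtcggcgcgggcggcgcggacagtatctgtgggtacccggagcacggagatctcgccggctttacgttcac

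The LDHA window, the first of 2 in the table, holds 5 matches of ACGTG and 1 of GCGTG. Of these 5, 4 are 2 CACGTG palindromes, each counted on both strands; CACGTG is also the E-box read by MYC and USF proteins. The other windows hold GCGTG alone, with 1 match in SLC2A1, 2 in CA12, 1 in PFKL and 2 in ENO1, so a match was present at members with negative, positive and near-zero fold changes. Of the 35 members with a RefSeq promoter, 31 had at least 1 match of either motif in at least 1 window. Of their 63 windows 65.1% held one, against 48.4% of all 35116 windows; for ACGTG the shares were 38.1% and 21.4%, and for GCGTG 38.1% and 36.5%. Many members are known HIF targets, so a higher share is no finding of these data. A match is a run of letters and not a measured binding site.

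HIF1A and EPAS1, which encode the alpha subunits, had unlike fold changes. HIF1A (ENSG00000100644, chromosome 14, 61695513 to 61748259, GRCh38, GENCODE 29) was at 219, 253 and 203 CPM in siKMT2C, against 429, 369 and 285 CPM in siNC. All siKMT2C libraries were below all siNC libraries, and siNC replicate 3 was the control nearest to them. The log2 fold change was -0.68 (SE 0.17, edgeR adjusted p = 0.103), or 62.3% of the control level (95% interval 47.3% to 82.1%). It was -0.84 without siNC replicate 3 (edgeR adjusted p = 0.0204) and -0.73 after correction for GC content and length (edgeR adjusted p = 0.00217), with adjusted p from 0.00217 to 0.335 over all fits. EPAS1, the other alpha subunit, had a log2 fold change of -0.17 (SE 0.14), and ARNT, the shared partner, 0.17 (SE 0.15), with overlapping groups for each. In the deposited FPKM values (fragments scaled to a length and to library size), HIF1A was the higher of the alpha subunits. It was at 22.8 ± 2.39 FPKM in siKMT2C and 37.3 ± 7.43 FPKM in siNC. EPAS1 was at 10.6 ± 0.938 FPKM in siKMT2C and 12.2 ± 1.56 FPKM in siNC (SD, n = 3). The length behind these values is not given. For ADM (5.40 CPM and 0.594 FPKM in siKMT2C) the implied length exceeds the whole locus (chromosome 11, 10304680 to 10307397). The same holds for some other members, ALDOA, GAPDH, TPI1 and LDHA among them. FPKM comparisons between genes are therefore uncertain. The count ratio of EPAS1 to HIF1A was 0.577, 0.442 and 0.643 in siKMT2C, against 0.279, 0.381 and 0.543 in siNC, and the groups overlapped.

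Among the sensors, the prolyl hydroxylase EGLN1 was at 56.9, 62.9 and 50.1 CPM in siKMT2C, against 71.1, 68.0 and 62.7 CPM in siNC, a log2 fold change of -0.25 (SE 0.14, edgeR adjusted p = 0.413). Replicate 2 of siKMT2C lay just above the lowest control. EGLN3, a hydroxylase that is itself a HIF target, was close to the detection floor, with 10, 5 and 9 counts in siKMT2C against 14, 17 and 17 in siNC (log2 fold change -0.96, SE 0.38, edgeR adjusted p = 0.257). EGLN2 (0.07, SE 0.40) and VHL (0.08, SE 0.20) had values near 0. EGLN2 varied more between replicates than between groups, at 21.0, 14.9 and 37.3 CPM in siKMT2C and 15.6, 19.0 and 35.4 CPM in siNC, with the GC-rich replicate 3 highest in each.

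From the wider list of HIF pathway regulators (11 genes that are not members), 10 were tested and the median log2 fold change was -0.08. Values were negative for 7 (70%, against 50.3% of all genes). Groups did not overlap in 2 with siKMT2C lower (20%, against 12.3% of all genes) and 2 with siKMT2C higher (20%, against 11.8%). The edgeR test called 2, both higher, where 1.5% of all genes were called. ELOC, the elongin C adaptor that joins VHL to its ubiquitin ligase, was at 73.0, 78.9 and 58.9 CPM in siKMT2C, against 31.3, 30.5 and 40.4 CPM in siNC (log2 fold change 1.04, SE 0.18, edgeR adjusted p = 0.0347). SIAH2, a ubiquitin ligase that targets the EGLN hydroxylases, was at 55.1, 54.0 and 50.7 CPM in siKMT2C, against 32.4, 27.6 and 33.4 CPM in siNC (0.77, SE 0.14, edgeR adjusted p = 0.0383). ELOC and SIAH2 were each called in 12 of the 17 fits run. Both calls were lost on leaving out siNC replicate 1, siNC replicate 2 or any siKMT2C library, with edgeR adjusted p from 0.0671 to 0.172 for ELOC and 0.0957 to 0.204 for SIAH2, while the log2 fold changes in those fits were 0.96 to 1.16 for ELOC and 0.69 to 0.81 for SIAH2. DESeq2 called the same 2 genes of this list (20%, against 5.74% of all genes). HIF1AN, the asparagine hydroxylase that blocks the HIF activation domain, was not called (-0.35, SE 0.14, edgeR adjusted p = 0.258), though its siKMT2C libraries (95.8, 87.1 and 100.3 CPM) were all below those of siNC (110.1, 112.1 and 137.9 CPM).

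Of the glucose transporters, SLC2A1 had the lower fold change. SLC2A1 (GLUT1; ENSG00000117394, chromosome 1, 42925375 to 42959176) was at 145, 131 and 108 CPM in siKMT2C, against 181, 216 and 181 CPM in siNC. No siKMT2C library reached the siNC range, and the log2 fold change was -0.59 (SE 0.15, edgeR adjusted p = 0.104), or 66.5% of the control level (95% interval 52.2% to 84.6%). Its adjusted p ran from 0.0179 to 0.32 over all fits. SLC2A3 (GLUT3), the high-affinity transporter, was at 105.6, 108.8 and 48.3 CPM in siKMT2C, against 96.8, 55.2 and 85.4 CPM in siNC, with overlapping groups and a log2 fold change of 0.15 (SE 0.33, edgeR adjusted p = 0.873). SLC2A3 has a close paralog, SLC2A14, whose reads the counting could split, so its level is uncertain.

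**Figure D2:**
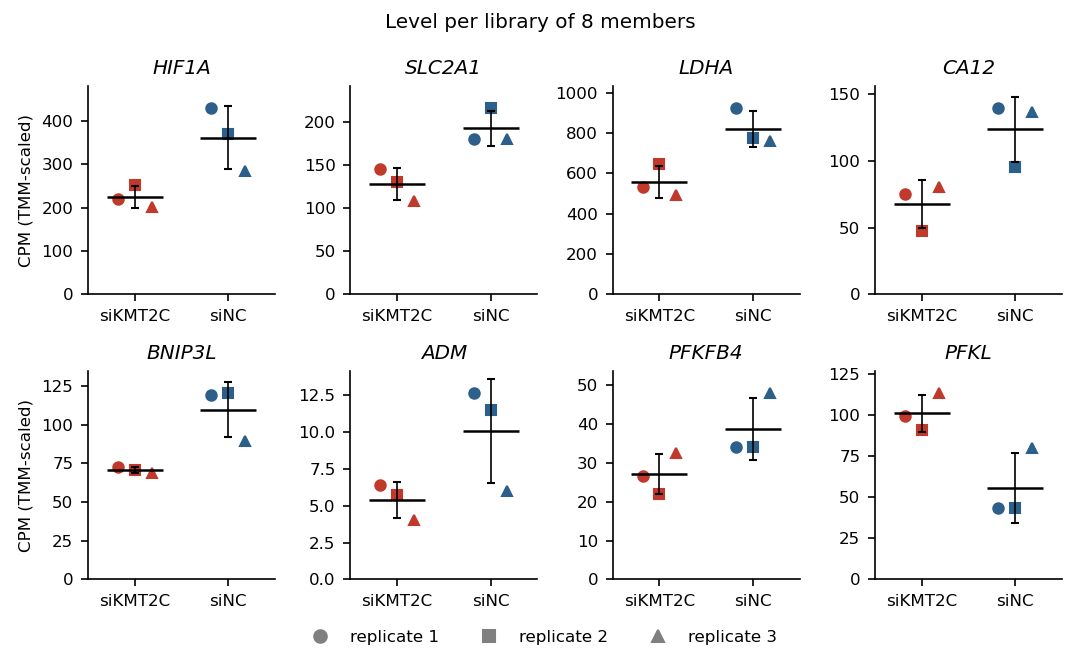
CPM per library (vertical axes, each from 0) of the 8 members called in at least 1 fit, siKMT2C left and siNC right; marker shapes give the replicate, lines the mean and bars the SD (n = 3 per group). In all but ADM the groups do not overlap. For HIF1A, LDHA, BNIP3L, ADM and PFKL siNC replicate 3 is the control closest to siKMT2C, and for SLC2A1 siNC replicates 1 and 3 are level.

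Most of the glycolytic chain, from hexokinase to pyruvate kinase, differed little. Summed over the 15 enzymes the level was 8813, 8182 and 8977 CPM in siKMT2C, against 7931, 8872 and 9660 CPM in siNC, and the groups overlapped. GAPDH was the most abundant member, at 3343, 2841 and 3288 CPM in siKMT2C and 2975, 3507 and 3093 CPM in siNC, which gives a log2 fold change of -0.02 (SE 0.12). Its 95% interval, 81.5% to 120.0% of the control level, bounds the size of a change in GAPDH that these libraries could have missed. Some other enzymes had wider intervals: 62.5% to 119% for PKM, 66.5% to 112% for HK1, 74% to 127% for PFKP and 77.7% to 132% for TPI1. Values near 0 were also seen for the enolase ENO1 (0.02, SE 0.13), the aldolase ALDOA (0.01, SE 0.13), triose phosphate isomerase TPI1 (0.02, SE 0.17), the mutase PGAM1 (0.06, SE 0.12), and the platelet-type phosphofructokinase PFKP (-0.05, SE 0.17). The signs of GAPDH, ENO1, ALDOA, TPI1 and PFKP changed between settings.

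The phosphoglycerate kinase PGK1 (476, 522 and 471 CPM in siKMT2C, against 467, 446 and 421 CPM in siNC) and the muscle-type phosphofructokinase PFKM (109.3, 115 and 105.0 CPM in siKMT2C, against 104.3, 93.1 and 103.1 CPM in siNC) had groups that did not overlap, with small log2 fold changes of 0.14 (SE 0.11) and 0.13 (SE 0.12). The inducible hexokinase HK2 also had groups that did not overlap, at 101.9, 103.9 and 105.3 CPM in siKMT2C against 118, 118 and 127 CPM in siNC (-0.22, SE 0.11, edgeR adjusted p = 0.371). HK1, the constitutive hexokinase (-0.21, SE 0.16), GPI, the isomerase of the second step (-0.11, SE 0.15), and PKM, pyruvate kinase (-0.21, SE 0.20), had overlapping groups. PKM ranged from 921 to 1650 CPM among the siNC libraries alone.

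PFKL, the liver-type phosphofructokinase (ENSG00000141959, chromosome 21, 44300051 to 44327376), had the highest fold change of all members. It was at 99.2, 90.5 and 113 CPM in siKMT2C, against 43.5, 43.2 and 79.9 CPM in siNC. The groups did not overlap, and siNC replicate 3 was far above the other controls. The log2 fold change was 0.86 (SE 0.25, edgeR adjusted p = 0.141), 1.21 without siNC replicate 3 (edgeR adjusted p = 0.00886) and 1.10 after correction for GC content and length (edgeR adjusted p = 0.00218), with adjusted p from 0.00218 to 0.361 over all fits. Its longest transcript is 64.1% G or C, the highest of the members, and siNC replicate 3 was the library with the most GC-rich counts; the part of GC content in the value of that library was not tested beyond this correction. PFKP was the isoenzyme with the highest counts and the highest deposited FPKM (32.1 ± 2.62 FPKM in siKMT2C, 33.9 ± 7.48 FPKM in siNC). It stood at 2.20, 2.22 and 2.06 counts per PFKL count in siKMT2C, against 4.33, 4.74 and 3.50 in siNC.

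The neuronal-type enolase ENO2 and the brain-type aldolase ALDOC, minor isoenzymes here, had the lowest fold changes among the enzymes. ENO2 was at 3.06, 2.18 and 2.33 CPM in siKMT2C, against 3.55, 5.40 and 4.05 CPM in siNC (log2 fold change -0.77, SE 0.26, edgeR adjusted p = 0.187), from 34 to 78 counts per library. ALDOC was at 15.66, 13.6 and 16.1 CPM in siKMT2C, against 15.68, 21.7 and 25.6 CPM in siNC (-0.47, SE 0.20, edgeR adjusted p = 0.294), and the groups overlapped. In the deposited values, ENO2 was at 0.277 ± 0.0534 FPKM in siKMT2C and 0.484 ± 0.105 FPKM in siNC. ENO1 was at 358.8 ± 2.65 FPKM in siKMT2C and 360.8 ± 50.2 FPKM in siNC (SD, n = 3).

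**Figure D3:**
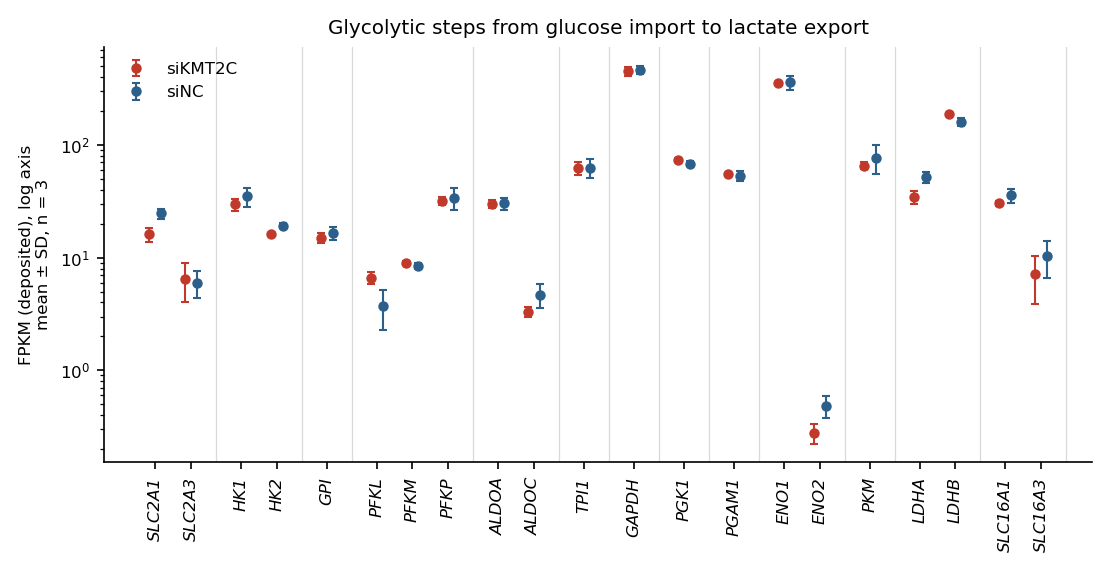
Deposited FPKM (log axis, mean ± SD, n = 3 per group) of the transporters and enzymes in pathway order from glucose import to lactate export, siKMT2C left of siNC for each gene; grey lines separate the steps. GAPDH, ENO1 and LDHB stand highest, though the length term of FPKM is uncertain, and so is the order of genes. For GAPDH, ALDOA, TPI1 and LDHA, among others, that term implies a length beyond the locus. SD bars of the groups stand clear of each other at SLC2A1, PFKL, ENO2 and LDHA, among others.

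The PFKFB enzymes make and remove the sugar phosphate that activates phosphofructokinase. PFKFB4 was at 26.7, 22.1 and 32.5 CPM in siKMT2C, against 34.0, 34.1 and 47.9 CPM in siNC, without overlap (log2 fold change -0.51, SE 0.20, edgeR adjusted p = 0.253, with 0.0474 to 0.527 over all fits). PFKFB3, the strongly activating form, was at 18.9, 36.9 and 19.2 CPM in siKMT2C, against 14.9, 18.8 and 23.4 CPM in siNC (0.39, SE 0.30, edgeR adjusted p = 0.564), and siKMT2C replicate 2 alone lay above the controls.

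At the end of glycolysis the lactate dehydrogenase subunits had fold changes of opposite sign. LDHA (ENSG00000134333, chromosome 11, 18394388 to 18408425), the form that favours lactate production, was at 534, 646 and 493 CPM in siKMT2C, against 923, 775 and 762 CPM in siNC. Its log2 fold change was -0.56 (SE 0.14, edgeR adjusted p = 0.107), or 68.0% of the control level (95% interval 54.0% to 85.7%), and -0.64 after correction for GC content and length (edgeR adjusted p = 0.0118, with 0.0118 to 0.361 over all fits). LDHB, the form that favours pyruvate, was at 813, 814 and 844 CPM in siKMT2C, against 765, 658 and 677 CPM in siNC (0.24, SE 0.11, edgeR adjusted p = 0.336). Neither gene's groups overlapped. In every siKMT2C library LDHA counts were below LDHB counts, with 0.656, 0.793 and 0.585 LDHA counts per LDHB count, and in every siNC library they were above, with 1.21, 1.18 and 1.13. The log2 ratio averaged -0.57 ± 0.22 in siKMT2C and 0.23 ± 0.05 in siNC (SD, n = 3 each), a difference of -0.80 (exact two-sided permutation test p = 0.1, the smallest that 3 against 3 libraries allow). Counts are not scaled by length. The length term of the deposited FPKM is uncertain, and for LDHA it implies a length beyond the locus. In these values LDHB was the higher of the pair in both groups. It was at 186.6 ± 4.84 FPKM in siKMT2C and 161.6 ± 13.5 FPKM in siNC. LDHA was at 34.4 ± 4.53 FPKM in siKMT2C and 51.6 ± 5.66 FPKM in siNC (SD, n = 3). Which of the pair had more transcripts is therefore not settled here.

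Of the monocarboxylate transporters that move lactate, SLC16A1 (MCT1) was at 284, 301 and 268 CPM in siKMT2C, against 371, 326 and 279 CPM in siNC (log2 fold change -0.20, SE 0.14, edgeR adjusted p = 0.523). SLC16A3 (MCT4), the HIF-induced exporter, was at 75.7, 115 and 188 CPM in siKMT2C, against 141.8, 142.8 and 255 CPM in siNC (-0.51, SE 0.35, edgeR adjusted p = 0.523). Each pair of groups overlapped, and SLC16A3 was highest in the third replicate of each group, where the counts were most GC-rich; its longest transcript is 62.7% G or C. PDK1, the kinase that closes pyruvate dehydrogenase, was low at 13.3, 10.1 and 10.6 CPM in siKMT2C and 13.3, 13.4 and 10.2 CPM in siNC (-0.12, SE 0.19).

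Ratios within a library do not depend on library scaling, and 12 pairs of isoenzymes or paralogs were compared in this way. In 6 pairs the groups did not overlap, each with p = 0.1 in the exact two-sided permutation test and 0.2 after adjustment over the 12 pairs, so none could pass the threshold. These were PFKP/PFKL (difference in log2 ratio -0.95), PFKFB4/PFKFB3 (-0.85), LDHA/LDHB (-0.80), ENO2/ENO1 (-0.79), ALDOC/ALDOA (-0.46) and BNIP3L/BNIP3 (-0.28). All but ALDOC/ALDOA hold a member whose own groups did not overlap, so the count of pairs partly repeats the values of single genes. The share among other gene pairs was not computed. Of all single genes tested, 12.3% did not overlap with siKMT2C lower and 11.8% with siKMT2C higher. PFKP/PFKL averaged 1.11 ± 0.06 in siKMT2C and 2.06 ± 0.22 in siNC on the log2 scale (SD, n = 3 each). In HK2/HK1 the difference was -0.02, in SLC2A3/SLC2A1 0.69, in EPAS1/HIF1A 0.50, in SLC16A3/SLC16A1 -0.36, in P4HA2/P4HA1 -0.20 and in PFKP/PFKM -0.16, with overlapping groups in all 6. Reads assigned to BNIP3 pseudogenes came to 12.5% to 27.5% of the BNIP3 count, so the BNIP3L/BNIP3 ratio is uncertain. For LDHA, LDHB, ENO1 and HK2 that share was at most 1.6%, and for GAPDH and TPI1 at most 4.21% and 6.83%.

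**Figure D4:**
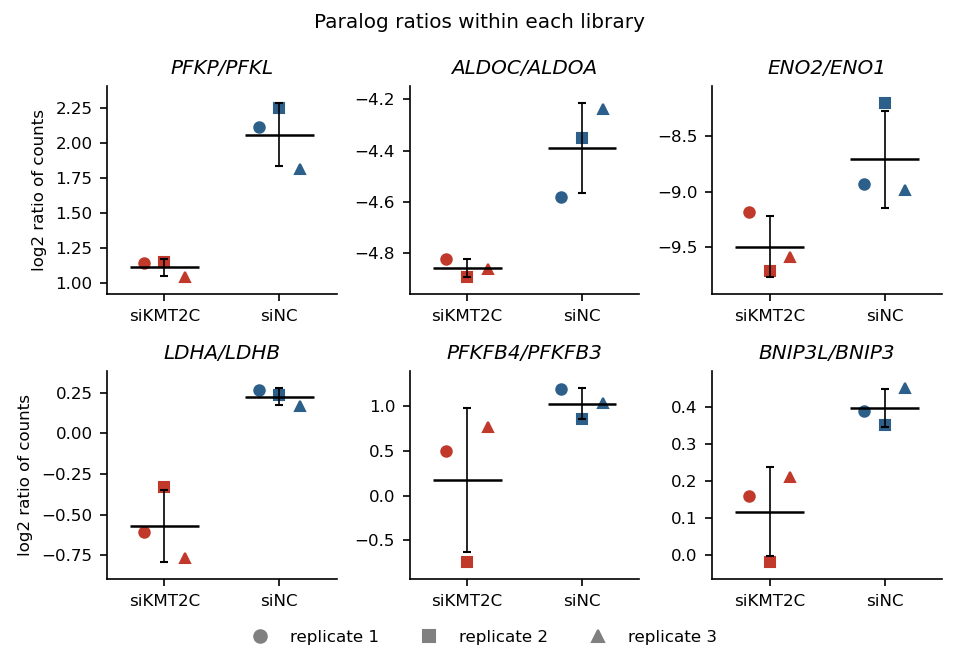
Log2 ratio of counts within each library (vertical axes do not start at 0) for the 6 pairs whose groups do not overlap, siKMT2C left and siNC right; marker shapes give the replicate, lines the mean and bars the SD (n = 3). The LDHA/LDHB ratio lies from -0.77 to -0.33 in siKMT2C and from 0.17 to 0.27 in siNC.

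BNIP3L (NIX; ENSG00000104765), a mitophagy receptor, had the smallest p of the members. It was at 72.5, 70.9 and 68.6 CPM in siKMT2C, against 119.5, 120.4 and 89.4 CPM in siNC, so that the siKMT2C libraries lay close together below all controls. The log2 fold change was -0.64 (SE 0.15, edgeR adjusted p = 0.0851), or 64.4% of the control level (95% interval 50.6% to 81.9%), -0.77 without siNC replicate 3 (edgeR adjusted p = 0.0136) and -0.70 after correction for GC content and length (edgeR adjusted p = 0.00497), with 0.00497 to 0.294 over all fits. BNIP3, its paralog, was at 64.6, 72.0 and 59.3 CPM in siKMT2C, against 91.3, 94.3 and 65.2 CPM in siNC (-0.36, SE 0.17, edgeR adjusted p = 0.353), with siNC replicate 3 inside the siKMT2C range.

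CA12, a membrane carbonic anhydrase that helps to control pH (ENSG00000074410, chromosome 15, 63321378 to 63382161), was at 75.4, 47.4 and 80.6 CPM in siKMT2C, against 139, 95.5 and 136 CPM in siNC. The groups did not overlap, replicate 2 was the lowest library of each, and the log2 fold change was -0.87 (SE 0.24, edgeR adjusted p = 0.119, with 0.00516 to 0.297 over all fits). CA9, the classical hypoxia marker of the same family, was nearly undetected, with 0, 0 and 1 counts in siKMT2C and 3, 0 and 1 counts in siNC, and it did not pass the filter. ADM, the vasodilator peptide adrenomedullin, was at 6.42, 5.72 and 4.05 CPM in siKMT2C, against 12.6, 11.5 and 6.03 CPM in siNC (-0.89, SE 0.31, edgeR adjusted p = 0.2). Its siNC replicate 3 lay inside the siKMT2C range, and without that library the log2 fold change was -1.17 (edgeR adjusted p = 0.0387, with 0.0338 to 0.44 over all fits).

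Other targets were near the control level. NDRG1, a stress-response gene and the most abundant of this class, was at 573, 596 and 681 CPM in siKMT2C, against 605, 565 and 583 CPM in siNC (0.08, SE 0.12). The collagen prolyl hydroxylases P4HA1 (0.26, SE 0.17) and P4HA2 (0.07, SE 0.12) and the ankyrin-repeat gene ANKRD37 (-0.10, SE 0.25; 3.36 to 5.10 CPM in siKMT2C and 3.46 to 4.81 CPM in siNC) had overlapping groups.

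A wider list of 30 hypoxia targets that are not members had no call in the edgeR test and 2 in DESeq2 (LOXL2 lower, ERO1A higher; 6.67%, against 5.74% of all genes), with 8 at an unadjusted p under 0.05 (26.7%, against 16.9% of all genes), 20 negative values (66.7%, against 50.3% of all genes) and a median log2 fold change of -0.17. Because this list too was chosen with earlier results known, its shares are no separate support for the values of the members. LOXL2, a lysyl oxidase of the matrix, was at 7.16, 5.59 and 10.0 CPM in siKMT2C, against 15.3, 20.2 and 19.9 CPM in siNC, with an edgeR adjusted p of 0.05 that fell just above the threshold (-1.28, SE 0.24). LOXL2 was called in 10 of the 17 fits run, among them edgeR with RLE size factors and with library size alone. ERO1A was called in 5 of the 17. RAB20, a trafficking GTPase, was also lower without overlap (-0.70, SE 0.23, edgeR adjusted p = 0.187). ERO1A, the oxidase of the endoplasmic reticulum that is induced by hypoxia and by the unfolded protein response, was at 259, 306 and 216 CPM in siKMT2C against 183, 162 and 110.3 CPM in siNC, higher without overlap (0.78, SE 0.21, edgeR adjusted p = 0.119).

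Among 20 further genes of glycolysis and gluconeogenesis only 10 were expressed well enough to test. None was called by edgeR in the fit reported, and DESeq2 called PCK2 alone (10%, against 5.74% of all genes). At an unadjusted p under 0.05 there was 1 (10%, against 16.9% of all genes). Values were positive for 8 and negative for 2 (20%, against 50.3% of all genes), and the median was 0.11. PCK2, the mitochondrial enzyme that makes phosphoenolpyruvate, had the smallest p, at 98.5, 108.6 and 102.1 CPM in siKMT2C against 49.95, 49.8 and 70.5 CPM in siNC (0.86, SE 0.17, edgeR adjusted p = 0.0534). PCK2 was called in 7 of the 17 fits run, among them edgeR with no filter and after correction for GC content and length. ADPGK (0.45, SE 0.25) and PGM1 (0.14, SE 0.14) followed by p. Of 14 genes that control the entry of pyruvate into mitochondria, 13 were tested and the median was 0.03. None was called over all 6 libraries by edgeR or DESeq2, with 1 at an unadjusted p under 0.05 (7.69%, against 16.9% of all genes). First by p were the kinase PDK2 (-0.52, SE 0.22), the phosphatase regulator PDPR (-0.76, SE 0.38) and the pyruvate dehydrogenase subunit PDHB (-0.25, SE 0.16). Without replicate 3 of both groups PDPR was called (-1.53, edgeR adjusted p = 0.00787).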

How the data were processed

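RNA-seq was done on 3 siKMT2C and 3 siNC libraries. The authors deposited a single table with whole-number read counts and FPKM values per gene, per the file headers. CASAVA 1.8 and TopHat2 2.0.6 are named in the submitters' processing notes; the counting tool and its use of strand are not given in the sources used here, and the build named there is of mouse, whereas the identifiers are human. Symbols, coordinates and transcript GC content came from GENCODE 29 (GRCh38). Read counts entered edgeR 4.0.16 under R 4.3.3 (filterByExpr, trimmed mean of M-values, robust quasi-likelihood F test, Benjamini-Hochberg adjustment over all 15063 genes tested, threshold 0.05). SE is the absolute log2 fold change over the square root of F. The deposited FPKM values were used only to compare levels between genes. Their length term is not given and exceeds the locus for some members, so these comparisons are uncertain. ADM, ALDOA, GAPDH, TPI1 and LDHA are among those members. Paralog ratios were log2 ratios of counts plus 0.5, compared with an exact two-sided permutation test (scipy 1.17.1). Promoter windows were from RefSeq.

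The members and lists were chosen with earlier results of these data known. Values per library are given for members called in any fit and for the 3 with the smallest p in each role, further members being named by their fold change or by groups that did not overlap; of each further list, for called genes and the 3 smallest p. Alternatives were RLE size factors, library size alone, no filter, a minimum of 1 CPM in 3 libraries, DESeq2 1.42.0, limma-voom (limma 3.58.1), a replicate block, a loess correction (span 0.3) for transcript GC content and length with and without that block, each library left out, and, added after the data had been seen, replicate 3 of both groups left out. The edgeR test was run on simulated counts with the dispersion fitted to these libraries and 50 genes changed at each fold. It called 8% of the 1.5-fold, 52% of the 2-fold, 82% of the 3-fold and 90% of the 4-fold changes. There were 10 false calls among 14811 genes. A gene that is not called may therefore still have changed. The libraries held 14409277 to 17539519 counts each, and intervals cover the spread between libraries.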

Additional observations from a re-analysis of the deposited data

How the results depend on the processing

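The edgeR test called 226 genes. DESeq2 called 864. Further edgeR fits called 1358 after correction for GC content and length, 648 without replicate 3 of both groups, and 16 to 620 with 1 library left out. Members called were 0, against 6 with DESeq2, 4 after that correction, 4 without replicate 3 of both groups and 0 to 4 with 1 library left out. Whether replicate numbers pair the libraries is not settled by these values. Deviations of same-numbered libraries correlated at 0.0122, 0.18 and 0.481 over 12818 genes, the last being the highest of all pairings between the groups. However, siKMT2C replicate 2 correlated best with siNC replicate 1 (0.393). The number of members called thus depends on whether a pairing is assumed. With a replicate block 968 genes (6.43%) and 7 members (17.9%) were called: HIF1A, SLC2A1, LDHA, CA12, BNIP3L and ADM lower and PFKL higher. With the block and the correction for GC content and length it was 1382 genes (9.17%) and 7 members, with PFKFB4 (edgeR adjusted p = 0.0474) in place of ADM.

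The median log2 fold change was -0.23 for the other hypoxia targets, -0.35 with no filter, where CA9 enters, and -0.35 without replicate 3 of both groups (-0.29 to -0.15 with 1 library left out). It was -0.09 to 0.09 for the glycolytic enzymes and -0.22 to -0.09 for the HIF subunits and sensors with 1 library left out. For the HIF subunits and sensors it was -0.06 with a minimum of 1 CPM and -0.07 after correction for GC content and length, against -0.17 as reported. In all fits 28 of 39 members kept their sign. After correction for GC content and length, without and with the block, the sign changed for PFKP (0.04 and 0.04), GAPDH (0.02 and 0.03) and PDK1 (0.07 and 0.06). With library size alone it changed for ALDOA (-0.02), TPI1 (-0.01) and ENO1 (-0.01), and without replicate 3 of both groups for PFKP (0.08) and NDRG1 (-0.01). Leaving out 1 library gave EGLN2 -0.38 to 0.49, VHL -0.06 to 0.31, SLC2A3 -0.06 to 0.44, PFKP -0.16 to 0.14, ALDOA -0.09 to 0.09, TPI1 -0.09 to 0.18, GAPDH -0.06 to 0.06, ENO1 -0.06 to 0.12 and ANKRD37 -0.30 to 0.02. The causes were not tested. Counts of 0 to 17 per library limit CA9 and EGLN3.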
